A study of Mus musculus with 31 samples.

Results

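Messenger RNA on tagged ribosomes was compared between the central and the peripheral axons of mouse nociceptors, each taken relative to control animals that carried no tagged ribosomes. The comparison used the 15 axon libraries of the 31 libraries in the series, chosen from the tissue and genotype in the labels: 4 central axon and 4 peripheral axon libraries from Nav1.8-Cre;L10a-eGFP-fl/fl mice, and 4 central axon and 3 peripheral axon libraries from L10a-eGFP-fl/fl mice, the negative controls. All 4 groups carried the L10a-eGFP-fl/fl allele, which the sample titles spell L10a-eGP-fl/fl. Only the Cre groups could recombine it, in cells whose Nav1.8 locus is or was active. Central axons came from lumbar dorsal roots together with spinal cord (batch 1) and peripheral axons from sciatic nerve (batch 2), so tissue and batch cannot be told apart in any direct comparison of central with peripheral libraries. Age and sex were not given in the sources used here, and nothing in the labels ties a Cre library to a control library of the same number. Peripheral axon control replicate 3 was not analysed here.

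A dorsal root ganglion neuron sends a single process that splits, with a peripheral branch to skin, muscle or viscera and a central branch to the spinal cord. Axons hold messenger RNA and ribosomes and make some of their own proteins, among them cytoskeletal, mitochondrial and ribosomal proteins. Nav1.8, the sodium channel encoded by Scn10a, marks mostly nociceptors, the neurons that signal painful stimuli. In translating ribosome affinity purification (TRAP), an antibody to GFP pulls down the tagged ribosomes of the Cre-marked cells with the RNA they hold. A control pulldown without tagged ribosomes holds RNA of the surrounding tissue, and that tissue differs between cord and nerve.

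The quantities used below are 3, on the log2 scale and from 1 fit of the 15 libraries with edgeR's quasi-likelihood test. The central enrichment is the log2 ratio of central Cre to central control. The peripheral enrichment is the same ratio in sciatic nerve. The difference of differences is the central minus the peripheral enrichment, so a factor of tissue or batch that multiplies Cre and control libraries alike drops out of it. Background RNA that adds to the RNA of the axons does not drop out, and a high background pulls the ratio towards equality. A gene was called at a Benjamini-Hochberg adjusted p under 0.05 over all 17314 genes tested. Levels are normalised CPM, counts scaled to a fixed library total.

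Library totals ran from 4.10 to 15.1 M counts (M, mega), and between 7251 and 16509 genes reached 10 counts. Central control 3 (7251 genes) and peripheral control 4 (9606 genes) had the fewest genes. Tissue markers separated the groups as the labels state. Summed markers of spinal inhibitory and motor neurons, such as the GABA-synthesising enzyme Gad1, were at 115 to 346 CPM in central Cre and 127 to 650 CPM in central control libraries. In sciatic nerve they were at 0.71 to 2.79 CPM in Cre libraries, and all 7 were at 0 in the 3 controls. The list also holds Lmx1b, a gene of excitatory dorsal horn neurons, so its name describes most members and not all. Summed Schwann cell markers were at 8303 to 18400 CPM in peripheral Cre and 8020 to 10150 CPM in peripheral control libraries, against 324 to 679 and 143 to 528 CPM in the central groups. In bulk libraries fewer cells of a type and less RNA per cell cannot be told apart.

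The targeted channel was read first. Scn10a was at 2.21, 0, 0 and 28.8 CPM in central controls 1 to 4 and at 468, 100, 120 and 41.5 CPM in central Cre libraries 1 to 4, with no overlap. In sciatic nerve it was at 124, 43.4 and 0 CPM in controls 1, 2 and 4 and at 40.9, 339, 138 and 157 CPM in Cre libraries. Peripheral control 1, which carries no Cre by its label, thus lay within the range of the Cre libraries for this nociceptor gene, and above the library labelled peripheral Cre 1. The counts hold no value for GFP, so the genotypes of these 2 libraries were not checked here. Every peripheral enrichment below takes them as labelled. For Scn10a the difference of differences was 2.95 ± 2.16 (SE) and did not pass the test (adjusted p = 0.957). It was 6.27 without central control 4 and 1.53 without peripheral control 1. Rpl10a, the gene of the tagged ribosomal protein, had a difference of differences of -0.83 ± 0.73 (adjusted p = 1), with all 15 libraries between 26.0 and 325 CPM.

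Without the controls, central and peripheral Cre libraries differed widely. Of the 17314 genes, 955 (5.52%) were called between them, 311 (1.8%) higher and 644 (3.72%) lower in central axons. The control libraries of the same tissues differed in 1629 genes (9.41%), 545 (3.15%) higher and 1084 (6.26%) lower in central tissue. Taking each axon relative to its own control left 1 called gene (0.00578%), the semaphorin Sema3b, and no gene called lower. The difference of differences draws on 4 groups and has a larger error than a direct comparison. Fewer calls thus do not by themselves mean smaller differences. The 955 genes called between the Cre groups had a median absolute log2 difference of 5.61 there and of 0.91 in the difference of differences. They were chosen for a large value between the Cre groups, so the drop is a description. Of them 139 had an unadjusted p under 0.05 in the difference of differences, where 6.9% of all genes did. At that threshold there were 1195 genes (6.9%) in all: 739 genes (4.27%) lay above 0 and 456 (2.63%) below, and the median over all genes was 0.05. The count of calls depended on the test: limma-voom called 4 genes and DESeq2 called 285, 160 higher and 125 lower, and Sema3b was among them in each case.

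The enrichments themselves were unequal in what could be called. In central axons 17 genes (0.0982%) were called, all higher in Cre than in control libraries, and in peripheral axons 0 genes (0%) were called by edgeR, with no adjusted p under 0.496. At an unadjusted p under 0.05 that peripheral comparison gave 926 genes (5.35%), and limma-voom called 3 and DESeq2 157. The difference of differences is the test of that inequality, and Sema3b alone of the 17 passed it at the adjusted threshold. All 17 had an unadjusted p under 0.05 there, with a median absolute value of 6.76 beside 7.13 in the central comparison, whose libraries both tests share. Among the 739 genes above 0, 590 (79.8%) had a central enrichment above 0 at p under 0.05 and 84 (11.4%) a peripheral enrichment below 0, where 7.11% and 1.13% of all genes did. Genes chosen for a high difference must have a high central or a low peripheral value, so these shares are a description. In 533 of the 739 (72.1%) every central control library held 3 counts or fewer, which was the case for 9.77% of all genes tested. Among the 456 genes below 0, 303 (66.4%) had 3 counts or fewer in every peripheral control, against 10.9% of all genes. For such genes the fitted value depends on the added prior count, so a bound computed with a floor of 3 counts per library is given instead. Rarres1, Filip1 and Psen2 below had a near-empty control group in which 1 library alone held more than 3 counts. They keep a fitted value, which moved far when that library was left out.

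**Figure D1:**
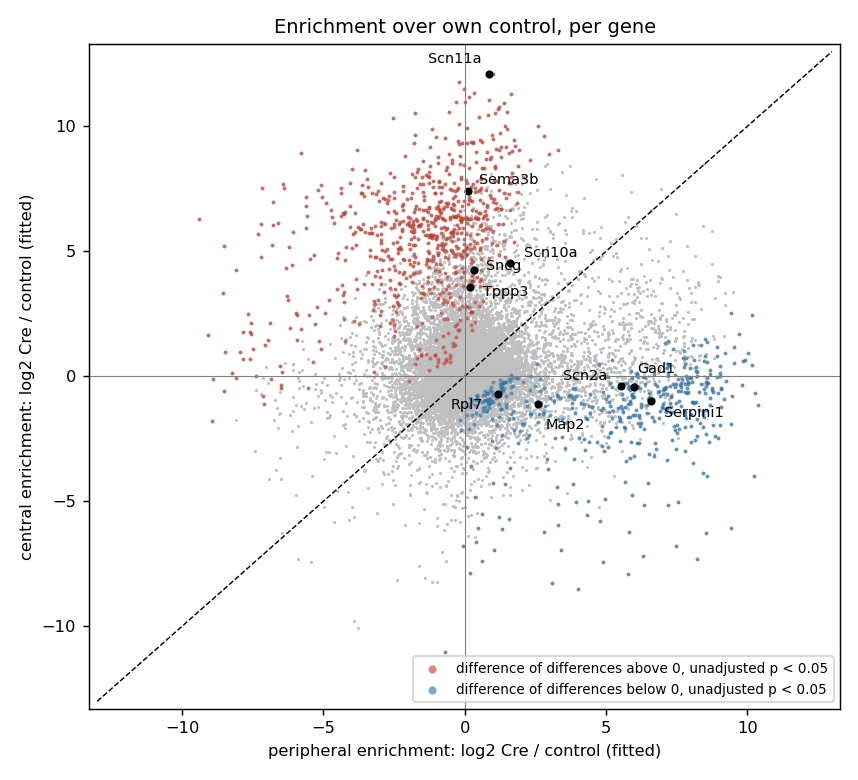
Peripheral enrichment (x axis) against central enrichment (y axis), both as fitted log2 ratios of Cre to control, with 1 point per gene. The dashed line marks equal enrichment, coloured points have an unadjusted p under 0.05 for the difference of differences, and 891 genes with groups too empty for a usable error are left out. Sema3b lies at 7.41 on the y axis and 0.12 on the x axis, and Gad1 lies at -0.43 and 5.99.

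Sema3b encodes a secreted class 3 semaphorin, a family of guidance proteins that act on growing axons, and lies on the minus strand of chromosome 9 at 107597674 to 107609229 (GRCm38). It was at 0, 0, 0 and 0.197 CPM in the central controls and at 8.38, 16.1, 12.3 and 7.57 CPM in the central Cre libraries. It was at 134, 143 and 225 CPM in the peripheral controls and at 196, 162, 211 and 159 CPM in the peripheral Cre libraries. All central Cre libraries lay above all central controls, while in sciatic nerve the Cre and control ranges overlapped. Its difference of differences was 7.29 ± 1.04 (SE; adjusted p = 0.0257), and at least 5.04 with the floor. The central enrichment was 7.41 ± 0.87 (adjusted p = 0.0014) and the peripheral enrichment 0.12 ± 0.64. The level itself was lower in central than in peripheral Cre libraries, by a log2 difference of -4.03 (adjusted p = 0.0013). The difference of differences compares ratios, and the controls stood at 0 to 0.197 CPM in central and at 134 to 225 CPM in peripheral libraries. A larger ratio over an emptier control does not by itself mean that central axons hold more of this RNA. Summed Schwann cell markers moved the same way as Sema3b between tissues, and their part in the result was not tested.

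The Sema3b call rested on most of the libraries. It was kept when central control 1, 3 or 4, central Cre 4, or peripheral control 1 or 4 was left out, and lost when central control 2, central Cre 1, 2 or 3, peripheral control 2 or any 1 of the 4 peripheral Cre libraries was left out. Over those 15 fits the value stayed between 6.90 and 9.40 and the adjusted p between 0.0045 and 0.215. With the soma libraries added to the fit, the value was 7.24 and the adjusted p 0.157. The number of called genes moved as well: 68 without central control 1, 7 without peripheral control 1 or peripheral control 4, 2 without central control 3, central control 4 or central Cre 4, and 0 without any 1 of the others. Of the genes named here, Filip1, Gm49027, Mylpf, Ncmap, Rarres1, Serpini1 and Sncg were called without central control 1, Gm49027, Gm7271, Scn11a, Sncg and Tmem45b without peripheral control 4, and Nrk without central Cre 4, beside Sema3b where it kept its call.

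The next genes above 0, which did not pass the adjusted test, were taken by the smallest unadjusted p among those with a log2 difference of at least 1, a mean of at least 10 CPM in a Cre group, and Cre values relative to controls that did not overlap between central and peripheral libraries. That last condition alone was met by 23% of all genes in this direction. Ly86, a secreted partner of a Toll-like receptor relative, was at 1.36, 6.51, 0 and 3.26 CPM in the central controls and at 362, 323, 468 and 160 CPM in central Cre libraries. In sciatic nerve Ly86 was at 638, 138 and 78.1 CPM in the controls and at 132, 328, 479 and 300 CPM in Cre libraries. The central groups were far apart and the peripheral groups overlapped. Its difference of differences was 6.76 ± 1.28 (adjusted p = 0.155), and 5.26 without peripheral control 1.

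Filip1, a filamin-binding protein, showed the same pattern as Sema3b. It was at 0.51, 0, 0 and 0 CPM in the central controls, 21.0, 12.2, 11.2 and 6.87 CPM in central Cre, 76.6, 97.8 and 132 CPM in the peripheral controls and 95.8, 70.0, 68.7 and 92.3 CPM in peripheral Cre libraries. Its difference of differences was 6.72 ± 1.38 (adjusted p = 0.208). It was called by limma-voom (adjusted p = 0.0341) and DESeq2 (adjusted p = 2.0e-08), and without central control 1 it was at 10.03 (adjusted p = 0.0047).

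Rarres1 combined a central enrichment with lower values in peripheral Cre than in peripheral control libraries. Rarres1, a retinoic acid-responsive gene, was at 0.34 CPM or less in central controls and at 34.4, 11.0, 12.4 and 14.9 CPM in central Cre libraries. It was at 52.8, 33.4 and 133 CPM in peripheral controls and at 7.57, 16.4, 10.7 and 29.3 CPM in peripheral Cre libraries. Every peripheral Cre library lay below every peripheral control. For Rarres1 the value was 9.61 ± 1.77 (adjusted p = 0.155), and 12.41 with an adjusted p of 0.0093 without central control 1. Nrk, a protein kinase gene on the X chromosome, was at 0 CPM in every central control and at 1.47, 1.72, 3.88 and 0 CPM in central Cre libraries, against 59.0 to 328 CPM in peripheral controls and 35.9 to 63.9 CPM in peripheral Cre libraries. The peripheral ranges of Nrk overlapped, and it met the level of 10 CPM in the peripheral Cre group alone. Its difference of differences was at least 4.68 with the floor (adjusted p = 0.208).

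The remaining genes of this set were near absent from central controls and present in most sciatic nerve libraries with and without Cre. Tmem45b, a transmembrane protein gene, was at 0 CPM in all 4 central controls and at 121, 29.7, 24.9 and 34.2 CPM in central Cre libraries, and its difference of differences was at least 7.60 (adjusted p = 0.208). Gm7271 was at 0 CPM in the central controls and at 94.2, 43.4, 105 and 18.3 CPM in central Cre libraries, with a difference of at least 6.72 (adjusted p = 0.259). Tmc6, of the transmembrane channel-like family, was at 47.2, 3.35, 2.73 and 6.51 CPM in central Cre libraries against 39.9 to 56.2 CPM in peripheral controls, with a difference of at least 6.05 (adjusted p = 0.191). The first of those central Cre libraries lay well above the rest for Tmc6. Gm49027 shares 61.0% of its exon bases with another gene on the same strand, so its counts are uncertain. It was at 95.3, 31.2, 53.0 and 20.2 CPM in central Cre libraries and at 0.085 CPM or less in the central controls. Its peripheral levels were 24.4, 4.92 and 0 CPM in controls 1, 2 and 4 and 1.18 to 2.30 CPM in Cre libraries, and the ranges overlapped. Its difference of at least 9.88 (adjusted p = 0.155) thus included a lower peripheral mean in Cre than in control libraries, to which control 1 gave most.

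**Figure D2:**
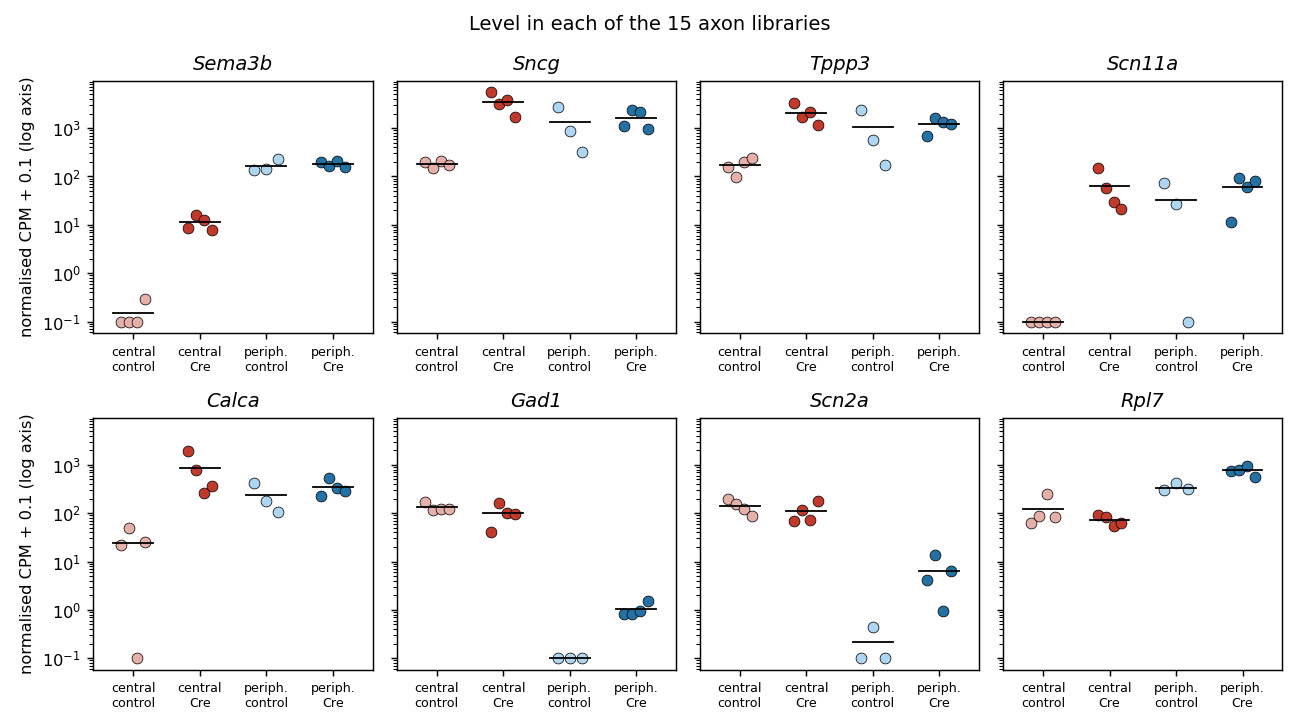
Normalised CPM plus 0.1 on a log axis for 8 genes, with 1 point per library and a line at the group mean, in 4 central control, 4 central Cre, 3 peripheral control and 4 peripheral Cre libraries. Sema3b, Sncg, Tppp3, Scn11a and Calca separate in the central groups and overlap in the peripheral groups, Gad1 and Scn2a lie at or near 0 in the peripheral controls, and Rpl7 is highest in peripheral Cre libraries.

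Sncg and Tppp3, abundant transcripts of sensory neurons, gave the same picture at high levels. Sncg encodes gamma-synuclein, a small axonal protein, and lies on chromosome 14 at 34370274 to 34374789 (GRCm38). Sncg was at 199, 151, 212 and 170 CPM in the central controls and at 5458, 3208, 3805 and 1689 CPM in the central Cre libraries. It was at 2738, 878 and 317 CPM in the peripheral controls and at 1091, 2351, 2145 and 959 CPM in the peripheral Cre libraries. The central Cre libraries all lay above the central controls, whereas peripheral control 1 lay above all 4 peripheral Cre libraries.

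The central enrichment of Sncg was 4.28 ± 0.58 and was called (adjusted p = 0.0056), the peripheral enrichment was 0.32 ± 0.55, and the difference of differences of 3.96 ± 0.76 had an adjusted p of 0.155. Without peripheral control 1 that difference was 2.76 (adjusted p = 0.201), and without peripheral control 4 it was 4.43 and was called (adjusted p = 0.0168). Tppp3, a tubulin polymerisation-promoting protein, was at 160, 96.1, 202 and 240 CPM in the central controls and at 3312, 1684, 2176 and 1178 CPM in central Cre libraries. In sciatic nerve Tppp3 was at 2424, 577 and 171 CPM in the controls and at 685, 1630, 1333 and 1200 CPM in Cre libraries, with control 1 again the highest. Its central enrichment of 3.58 ± 0.63 was called (adjusted p = 0.042), and its difference of differences of 3.38 ± 0.84 (adjusted p = 0.32) was 1.82 without peripheral control 1. The synuclein and TPPP family to which both belong had no common direction. Of 5 tested members 3 lay above and 2 below 0, with a median of 0.02, and 2.00 without central control 4.

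Nociceptor markers as a group lay above 0. Of 22 listed, 20 could be tested and 16 had a difference of differences above 0. None was called, and 8 of the 20 had an unadjusted p under 0.05 in that direction, where 4.27% of all genes did. Their median was 2.7, and 2.65 with values at the floor, beside 0.05 and 0.10 over all genes. The median central enrichment was 3.19 and the median peripheral enrichment 0.68. By library, as log2 CPM minus the mean log2 CPM of the controls, the median over the list was 4.90, 3.27, 3.93 and 3.11 in central Cre libraries 1 to 4 and -0.11, 3.64, 2.85 and 2.86 in peripheral Cre libraries 1 to 4. On that scale 3 of the 4 peripheral libraries lay near or within the central range, and peripheral Cre 1 stood at the level of the controls. The median difference of differences depended on peripheral control 1, in which Scn10a, Sncg and Tppp3 were within or above the range of the Cre libraries: without that library it was -0.10. It was 1.8 without central Cre 1 and 4.71 without central control 4, and between 2.24 and 3.28 in the other alternatives.

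Scn11a encodes Nav1.9, a second sodium channel of nociceptors. It was at 0 CPM in all 4 central controls and at 150, 58.4, 29.3 and 21.7 CPM in the central Cre libraries, a called enrichment (adjusted p = 0.042). In sciatic nerve it was at 72.7, 27.1 and 0 CPM in controls 1, 2 and 4 and at 11.1, 91.0, 60.5 and 78.7 CPM in Cre libraries, and the ranges overlapped. Its value was at least 6.85 with the floor (adjusted p = 0.277). It was called without peripheral control 4 (adjusted p = 0.018) and with the soma libraries in the fit (adjusted p = 0.032).

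Calca encodes the neuropeptide CGRP. It was at 22.2, 48.6, 0 and 24.9 CPM in the central controls and at 1976, 776, 255 and 366 CPM in central Cre libraries. In sciatic nerve it was at 430, 177 and 106 CPM in the controls and at 224, 532, 327 and 290 CPM in Cre libraries, and the ranges overlapped. Its difference of differences was 4.61 ± 1.39 (adjusted p = 0.458). Trpv1, the capsaicin receptor, was at 0 CPM in all central controls, at 13.5 to 31.6 CPM in central Cre libraries, at 12, 0 and 0 CPM in peripheral controls 1, 2 and 4, and at 0, 15.7, 0.29 and 6.79 CPM in peripheral Cre libraries. Its difference was at least 5.50 with the floor (adjusted p = 0.513). The fitted value of 9.87 ran from 1.73 to 11.1 with 1 library left out. Peripheral control 1 was the only peripheral control in which it was detected, so without that library no bound can be given.

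Markers of large-diameter sensory neurons showed no common direction, with 4 of 8 tested members above 0, a median of -0.13 and none at p under 0.05. Etv1, a transcription factor of proprioceptors also found in other sensory neurons, was at 2.72 ± 1.79 (adjusted p = 0.91), and the heavy neurofilament Nefh at -0.91 ± 0.63 (adjusted p = 0.933).

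The genes taken by the same rule below 0 were all called higher in central than in peripheral controls, where 3.15% of all genes were. The difference between controls enters the difference of differences with a minus sign. Genes chosen for a low value thus tend to be high in central controls, and this is a description. None of these genes passed the adjusted test, and the non-overlap they were chosen for was met by 9.97% of all genes in this direction. Gad1 was at 171, 118, 124 and 123 CPM in the central controls and at 41.3, 161, 101 and 94.6 CPM in central Cre libraries. In sciatic nerve it was at 0 CPM in the 3 controls and at 0.71, 0.741, 0.869 and 1.39 CPM in Cre libraries. The fitted difference of -6.42 thus rested on a few counts, and with the floor it was -1.14 or lower (adjusted p = 0.3). Scn2a, a sodium channel of unmyelinated central axons, was at 87.8 to 201 CPM in central controls, 67.3 to 183 CPM in central Cre, 0, 0.351 and 0 CPM in peripheral controls and 4.02, 13.7, 0.869 and 6.27 CPM in peripheral Cre libraries. Its difference was -3.83 or lower (adjusted p = 0.3).

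Serpini1 encodes neuroserpin, an inhibitor of tissue plasminogen activator secreted by neurons. It was at 182, 78.7, 130 and 79.1 CPM in the central controls and at 43.0, 49.7, 29.1 and 115 CPM in central Cre libraries. In sciatic nerve it was at 0.214, 0 and 0 CPM in the controls and at 6.62, 9.78, 2.90 and 11.3 CPM in Cre libraries, with no overlap. The difference was -4.74 or lower (adjusted p = 0.155), and it was called without central control 1.

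Nkain3, which encodes a protein that interacts with the sodium pump, was at 23.8 to 66.5 CPM in central controls and at 5.81 to 14.3 CPM in central Cre libraries. It was at 0.428, 0 and 0 CPM in peripheral controls and at 33.6, 5.34, 4.93 and 5.22 CPM in peripheral Cre libraries. Both tissues thus separated, in opposite directions, and the difference was -6.52 or lower (adjusted p = 0.3). Psen2, the presenilin 2 subunit of gamma-secretase, was at 12.5 to 29.0 CPM in peripheral Cre libraries and 0, 1.23 and 0 CPM in the controls. Its difference was -6.74 ± 1.72 (adjusted p = 0.338), and -11.6 without peripheral control 2. Dnajc6 encodes auxilin, which uncoats clathrin vesicles. It was at 31.9, 38.3, 82.0 and 32.6 CPM in peripheral Cre libraries against 6.42, 3.16 and 0 CPM in the controls, with a difference of -4.77 ± 1.22 (adjusted p = 0.343).

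Pcdh17, a protocadherin, was detected in all 15 libraries. It was at 395, 393, 321 and 158 CPM in central controls and 110, 177, 72.0 and 128 CPM in central Cre libraries, and at 18.8, 36.0 and 14.8 CPM and 36.9, 80.7, 145 and 41.4 CPM in the peripheral controls and Cre libraries. Its difference was -3.09 ± 0.80 (adjusted p = 0.343). Adgra1, an adhesion G protein-coupled receptor, and Serpinb1b, an intracellular serpin, were at 0 CPM in all peripheral controls and detected in 3 of 4 peripheral Cre libraries, with differences of -3.86 or lower and -3.28 or lower (adjusted p = 0.321 and 0.343).

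Cytosolic ribosomal proteins lay below 0 as a family. Of 79 genes, 74 had a difference of differences below 0 and none was called. At an unadjusted p under 0.05, 15 of 79 lay in that direction (where 2.63% of all genes did), and the median was -0.94 beside 0.05 over all genes. The median central enrichment was 0.07 and the median peripheral enrichment 1.24. Summed over the family, central Cre libraries held 4078 to 8163 CPM and central controls 4076 to 8585 CPM. Peripheral Cre libraries held 25016 to 76092 CPM and peripheral controls 15430 to 27777 CPM. In the direct comparison of Cre libraries 70 of the 79 were called lower in central axons, where 3.72% of all genes were, with a median of -3.45. In the direct comparison of controls 50 were called lower, where 6.26% of all genes were, with a median of -2.36.

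The peripheral libraries were spread in this family. Relative to the mean of the controls, the median over the 79 genes was 0.39, 1.35, 2.00 and 0.60 in peripheral Cre libraries 1 to 4, and 0.71, 0.34, -0.06 and -0.11 in central Cre libraries 1 to 4. The ranges overlapped, since peripheral Cre 1 and 4 lay below central Cre 1. The median difference of differences was between -1.37 and -0.68 with any 1 library left out, and -0.57 without central control 3 and peripheral control 4 together. Summed Schwann cell markers were also higher in peripheral Cre than in peripheral control libraries at their medians, 11202 against 9433 CPM, and their part in the result was not tested.

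Transcripts of ribosomal proteins commonly begin with a C followed by a run of pyrimidines, the 5′ terminal oligopyrimidine motif through which mTOR signalling controls their translation. The starts of the family are therefore shown for the members at p under 0.05 named here. Of those 15 genes 8 had an entry in the RefSeq start table (GRCm38.p6), and each window runs from 20 bases before to 20 after the start, 5′ to 3′ on the gene's strand. Capitals mark CTTTC or CTTCC, searched on the transcribed strand only, within 10 bases on either side of the start, and in Rplp2 the 2 overlap by 1 base.
Rps15a (chr7:118116128-118116167, minus strand): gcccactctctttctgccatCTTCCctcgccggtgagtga
Rplp2 (chr7:141447631-141447670, plus strand): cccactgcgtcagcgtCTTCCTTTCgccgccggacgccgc
Rpl41 (chr10:128549149-128549188, minus strand): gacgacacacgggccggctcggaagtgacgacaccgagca
Rps19, first of its 3 starts (chr7:24884572-24884611, plus strand): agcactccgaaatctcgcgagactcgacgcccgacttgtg
These letters were in the searched window of 2 of the 8 genes, Rps15a and Rplp2. Over all 32851 RefSeq starts CTTTC was in 2.44% of windows and CTTCC in 4.21%. Over the 68 starts of the 58 ribosomal protein genes with an entry they were in 14.7% and 16.2%. Either was in 25% of those starts and in 6.53% of all starts, so the genes shown do not stand out from their family. A match is a description of the letters, and no match says only that they are not in this window.

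Rpl7 had the smallest p of the family. It was at 62.9, 87.7, 245 and 82.3 CPM in central controls and at 92.7, 81.9, 54.1 and 62.3 CPM in central Cre libraries. In sciatic nerve it was at 295, 411 and 310 CPM in the controls and at 758, 784, 967 and 568 CPM in Cre libraries, with no overlap. The third central control stood above the rest. For Rpl7 the value was -1.90 ± 0.63 (adjusted p = 0.53), and -1.34 without central control 3.

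Rps15a, whose start is shown above, was at 74.6, 82.6, 37.6 and 83.1 CPM in central controls and 76.5, 91.7, 35.1 and 34.2 CPM in central Cre libraries. It was at 73.6, 116 and 44.6 CPM in peripheral controls and at 177, 257, 725 and 138 CPM in peripheral Cre libraries, all above the controls. Its difference was -2.28 ± 0.86 (adjusted p = 0.618). Rpl41, Rplp2 and Rps19 were at -2.11, -1.71 and -1.55 (adjusted p at least 0.653 for Rpl41 and Rps19). Rpl10a, the tagged member, lay near the family's median.

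**Figure D3:**
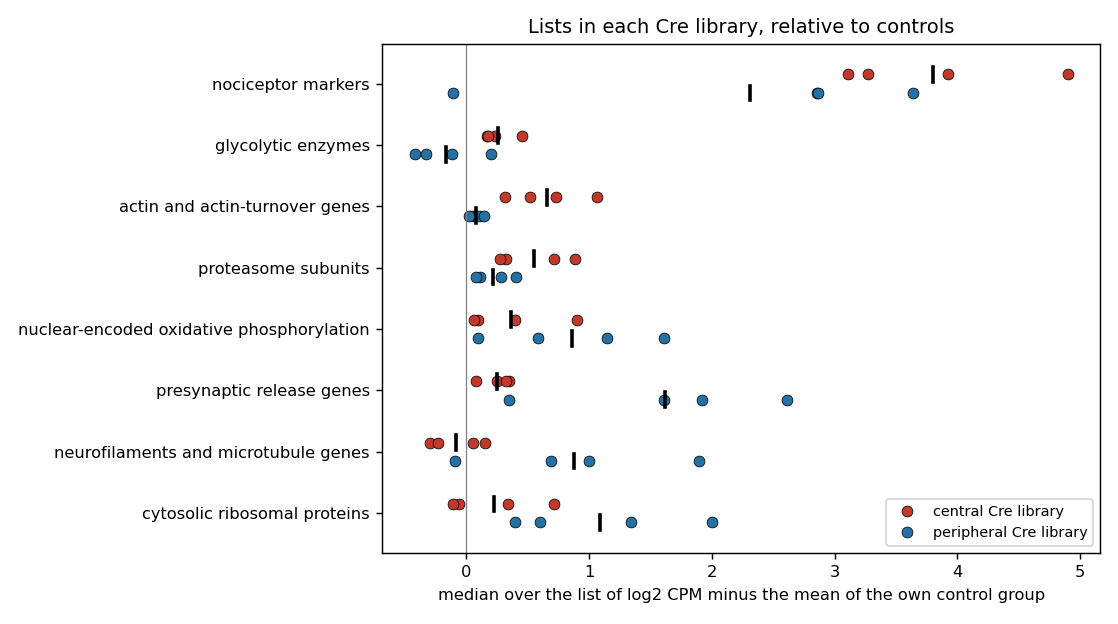
Median over each list of the log2 CPM minus the mean of the own control group (x axis), with 1 point per Cre library and a bar at the mean of the 4 libraries, for 8 lists. Nociceptor markers are at 3.11 to 4.90 in the central libraries and at -0.11 to 3.64 in the peripheral ones, and ribosomal proteins at -0.11 to 0.71 and 0.39 to 2.00.

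Other parts of the translation machinery and the nuclear-encoded mitochondrial genes had medians closer to that of all genes. Of 65 initiation and elongation factor genes, 28 were above and 37 below 0, with a median of -0.17. At p under 0.05 there were 1 above and 2 below 0, where 4.27% and 2.63% of all genes lay. Eif2b1, a subunit of the exchange factor that recycles eIF2, was at 2.7 ± 1.03 (adjusted p = 0.62), and the helicase cofactor Eif4b at -1.58 ± 0.75 (adjusted p = 0.719). For nuclear-encoded subunits of oxidative phosphorylation, 53 of 85 were below 0, with a median of -0.36. Below 0, 1 gene had p under 0.05, where 2.63% of all genes did: the ATP synthase subunit Atp5l at -3.66 ± 1.47 (adjusted p = 0.653). The complex I subunit Ndufa3 was at -1.77 ± 0.88 (adjusted p = 0.748). The median central enrichment of that family was 0.39 and the median peripheral enrichment 0.73. With 1 library left out the family's median ran from -0.71 (without peripheral control 2) to -0.04 (without peripheral Cre 3) in the difference of differences. The 8 tested mitochondria-encoded genes had a median of -0.22, which was -1.42 without peripheral control 4 and 0.33 without peripheral Cre 3, so its sign changed with the library left out. Proteasome subunits had a median of 0.35, with 26 of 37 above 0 and none at p under 0.05, and a median of -0.07 without peripheral control 1.

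Microtubule and actin genes had medians on opposite sides of 0, a difference between lists that was not tested. Of 25 neurofilament and microtubule genes 21 lay below 0, with a median of -0.90. At p under 0.05 there were 2 in that direction, where 2.63% of all genes lay: Map2 and Map1b. Map2, a microtubule-associated protein mostly of dendrites and cell bodies, was at 673, 504, 228 and 372 CPM in central controls and 128, 385, 123 and 199 CPM in central Cre libraries. It was at 11.8, 1.23 and 0 CPM in peripheral controls and 30.7, 23.1, 40.3 and 10.6 CPM in peripheral Cre libraries. Its difference was -3.69 ± 1.26 (adjusted p = 0.547), and -6.52 without peripheral control 1.

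Map1b, a microtubule-associated protein of growing axons, was at 2868 to 5974 CPM in central controls, 1768 to 3241 CPM in central Cre, 347 to 758 CPM in peripheral controls and 501 to 2084 CPM in peripheral Cre libraries. The ranges overlapped in each tissue, and the difference was -1.57 ± 0.61 (adjusted p = 0.636). Tau, Mapt, was at -1.60 ± 0.91 (adjusted p = 0.837) and the alpha-tubulin Tuba1b, which shares 22.7% of its exon bases with another gene on the same strand, at -1.08 ± 0.67 (adjusted p = 0.878). The median of the list was -1.46 without peripheral control 1, -0.41 without peripheral control 4 and -0.51 without peripheral Cre 2.

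Actin and actin-turnover genes lay on the other side, with 14 of 19 above 0, a median of 0.44 and 1 gene at p under 0.05, in a direction held by 4.27% of all genes. The median was 0.20 without peripheral control 1 and 0.69 without central control 4. The 1 gene was Arpc5, a subunit of the Arp2/3 complex that branches actin filaments. It was at 145, 106, 1.52 and 238 CPM in central controls, 717, 364, 730 and 281 CPM in central Cre, 873, 317 and 599 CPM in peripheral controls and 429 to 582 CPM in peripheral Cre libraries. Its difference was 2.37 ± 1.10 (adjusted p = 0.713). The actin-depolymerising factor Dstn was at 1.13 ± 0.55 (adjusted p = 0.728), and Arpc1a, of the same complex as Arpc5, at -1.03 ± 0.58 (adjusted p = 0.819).

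Presynaptic release genes, which act where central branches contact spinal neurons, lay mostly below 0. Of 29 genes 19 lay below 0, with a median of -0.65 and none at p under 0.05. The median was 1.49 in the direct comparison of Cre libraries and 1.98 in that of controls. The active-zone scaffolds Bsn and Pclo were at -2.04 ± 0.99 and -2.58 ± 1.40, and the vesicle protein Sv2a at -2.33 ± 1.42 (adjusted p = 0.727, 0.803 and 0.874). Snap25, a core fusion protein, was at 376 to 702 CPM in central controls and 396 to 639 CPM in central Cre libraries, and its difference was -0.93 ± 0.61 (adjusted p = 0.901). General neuronal markers, of which Map2 and Snap25 are members, had 9 of 12 below 0 and a median of -0.70. The presynaptic median was -1.68 without peripheral control 1, -0.38 without peripheral control 4 and -0.10 without peripheral Cre 2. For general neuronal markers it was -1.35, -0.29 and -0.41 in that order.

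Glycolytic enzymes lay above 0 in 12 of 17 gene identifiers (16 symbols), with a median of 0.63. At p under 0.05 there were 2 in that direction, where 4.27% of all genes lay. Gapdh was at 24.4 to 80.9 CPM in central controls, 69.4 to 103 CPM in central Cre, 150 to 539 CPM in peripheral controls and 155 to 284 CPM in peripheral Cre libraries. Its difference was 1.62 ± 0.71 (adjusted p = 0.674), and that of the isomerase Tpi1 was 1.45 ± 0.71 (adjusted p = 0.74). The median of the list was 0.20 without peripheral control 1 and 0.22 without peripheral control 2.

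Motors, signalling genes, RNA-binding proteins and known axonal messages had medians within 0.2 of 0. Kinesin and dynein motors had 15 of 21 below 0 and a median of -0.19, with the dynein light chain Dynll2 at -1.41 ± 0.67 and the kinesin Kif1b at -1.09 ± 0.61 (adjusted p = 0.725 and 0.815). The motor median was -0.92 without peripheral control 1. Genes of mTOR and MNK signalling had a median of 0.16, and Rheb and Mknk2 were at 0.95 ± 0.54 and 2.75 ± 1.86 (adjusted p = 0.836 and 0.926). By library, relative to the mean log2 CPM of the controls, the median of the signalling list was 0.39 to 0.92 in central and -0.41 to 0.12 in peripheral Cre libraries, with no overlap, and the median difference was 0.62 without central control 4. Of its 26 members 10 were apart with central higher and 2 with central lower, as were 23% and 9.97% of all genes. No median over all genes is given on that scale, on which sparse controls shift many genes. Among 48 neuronal RNA-binding proteins the median was -0.12 (-0.53 without peripheral control 1). Of these 1 gene, Ybx1, had p under 0.05, at -1.06 ± 0.49 (adjusted p = 0.713), and 2.63% of all genes lay below 0 at that threshold. The splicing regulator Mbnl2 was at 2.43 ± 1.26 (adjusted p = 0.779). Among 23 transcripts known from axons 11 were above and 12 below 0, with a median of -0.12, and 0.13 without central control 1. By library their median was 0.30 to 0.65 in central and -0.14 to 0.27 in peripheral Cre libraries, again with no overlap. Of the 23, 6 were apart with central higher and 1 with central lower, near or under the shares of all genes. With limma-voom the median difference was 0.17 for these transcripts, 0.55 for the signalling list and 0.63 over all genes. The non-overlap is thus not read as a trait of these lists. Beta-actin, Actb, was at -0.77 ± 0.58, the cytochrome oxidase subunit Cox4i1 at -1.03 ± 0.56, and neuritin, Nrn1, at 1.95 ± 1.32 (adjusted p = 0.972, 0.798 and 0.926).

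**Figure D4:**
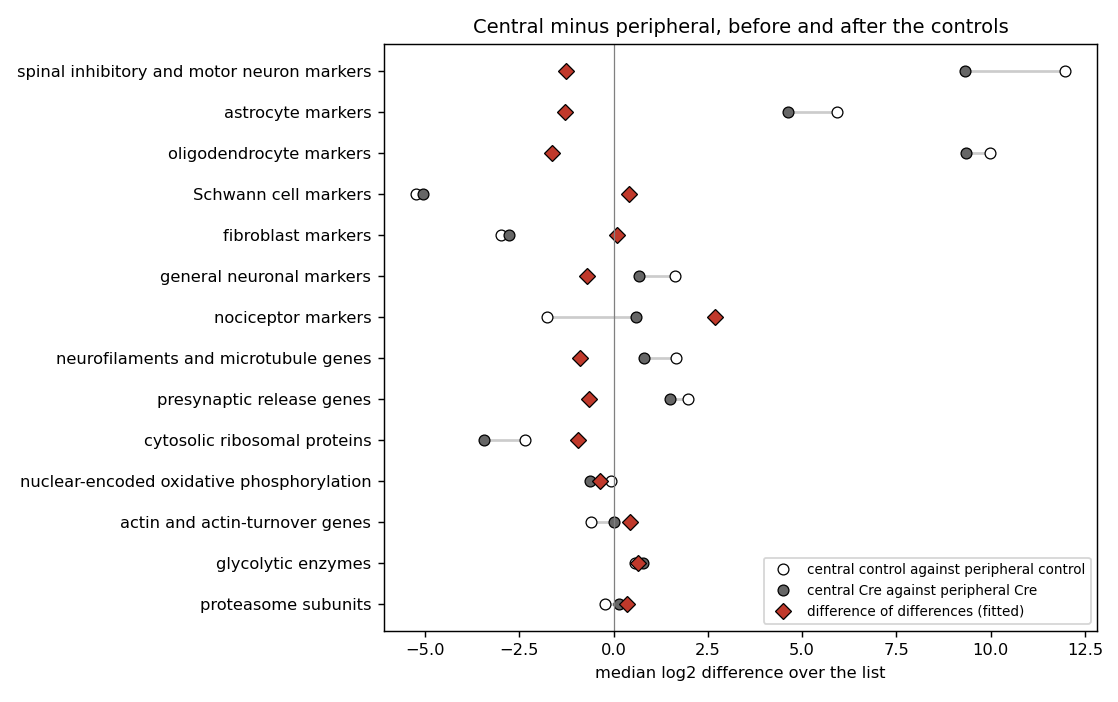
Median fitted log2 difference, central minus peripheral, over 14 lists, between controls (open circles), between Cre libraries (grey circles) and as the difference of differences (red diamonds). Spinal inhibitory and motor neuron markers are at 11.97, 9.32 and -1.27, Schwann cell markers at -5.23, -5.06 and 0.40, and nociceptor markers at -1.76, 0.59 and 2.7.

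Markers of the surrounding cells differed more in the direct comparisons than in the difference of differences, except erythroid markers between controls. Several of their fitted medians still lay as far from 0 as those of the families above. With the floor, the medians of the spinal, oligodendrocyte and astrocyte lists lay closer to 0. Spinal inhibitory and motor neuron markers had a median of 9.32 between Cre libraries, 11.97 between controls and -1.27 in the difference of differences. With the floor the last of these was -0.63. All 7 had 3 counts or fewer in every peripheral control and 5 of them in every peripheral Cre library, so their peripheral part could hardly be measured. Oligodendrocyte markers, 6 of 7 of them with such empty peripheral controls, had a median of -1.63, and -0.48 with the floor. With limma-voom the spinal and the oligodendrocyte medians had the other sign, at 0.49 and 1.70. Astrocyte markers had a median of -1.30, which was -0.46 with the floor and -2.59 without peripheral control 1. At p under 0.05, 2 of 7 lay below 0, where 2.63% of all genes did. The glutamate transporter Slc1a3, an astrocyte marker, was at -1.67 ± 1.24 (adjusted p = 0.962).

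Schwann cell markers had medians of -5.06 and -5.23 in the direct comparisons and of 0.40 in the difference of differences, or 0.04 with the floor. The fitted median was between -0.14 (without central Cre 2) and 1.18 (without central control 4) with 1 library left out. The myelin genes Ncmap and Pmp22 were at 3.27 ± 1.41 and 2.09 ± 1.25 (adjusted p = 0.663 and 0.862). Ncmap was at 8.70 and called without central control 1 (adjusted p = 0.0105), and Pmp22 was at 3.69 without central control 4. Fibroblast, endothelial, and microglia or macrophage markers had medians of 0.08, 0.21 and 0.38. The endothelial median was 3.50 without central control 1, and that of microglia or macrophages -1.0 without peripheral control 4. Erythroid markers were at -1.20, beside -2.26 between Cre libraries and -0.94 between controls. Of 6 adipocyte markers 1 could be tested, at 2.78.

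Skeletal muscle markers had the highest median of these lists. Of 10 members 9 lay above 0 and 5 had p under 0.05 in that direction, where 4.27% of all genes did. Their median was 4.67, and 3.61 with the floor. Summed, they were at 1023 to 35275 CPM in peripheral controls and 1081 to 4858 CPM in peripheral Cre libraries, against 20.5 to 174 CPM in the central groups. Mylpf, a fast myosin light chain, was at 203, 2424 and 119 CPM in peripheral controls 1, 2 and 4 and at 83.5, 375, 80.2 and 73.5 CPM in peripheral Cre libraries. It was at 1.19, 0, 0 and 0 CPM in central controls and at 25.8, 4.29, 0.969 and 4.14 CPM in central Cre libraries. Peripheral control 2 stood far above the rest. For Mylpf the value was 7.28 ± 1.79 (adjusted p = 0.32), and those of Tnni2, Ckm and Acta1 were 5.58, 4.78 and 3.21 (adjusted p = 0.637, 0.654 and 0.654). The median of the list was 1.47 without peripheral control 2 and 2.52 without central Cre 1.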

How the data were processed

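RNA from tagged ribosomes was sequenced from SMART-Seq v4 libraries, with an estimated input under 100 pg for axon samples, per the labels' protocols. The authors deposited raw counts per gene, 1 column per library, in 2 tables of 55536 gene identifiers. STAR 2.7.2b and mm10 are named in the submitters' processing notes, and the counting program and its use of strand are not given in the sources used here. All identifiers matched GENCODE M21 (GRCm38). The 15 axon libraries were fitted together with edgeR 4.0.16 in R 4.3.3 (filterByExpr, minimum count 10, minimum total 15; TMM; glmQLFit and glmQLFTest; 4 group terms), with Benjamini-Hochberg adjustment over all genes tested and 0.05 as the threshold. The SE is the absolute log2 value divided by the square root of F. A floor of 3 counts per library gave bounds. With a common biological coefficient of variation of 1.19, replicate spread rather than depth sets the errors, and floors cover counting error only. Named genes were Scn10a, Rpl10a, Sncg and Tppp3, every called gene, genes filling each direction to 10 (absolute log2 of at least 1, mean of at least 10 CPM in a Cre group, non-overlapping values at a prior count of 2), and up to 4 genes per list by smallest p; Rplp2 was chosen after its value was seen, and some genes that the rule names are not reported here. Members and lists were chosen with earlier results of these data known. The fitting code was tested on simulated data with less spread between replicates than these libraries. Such data do not show how many real differences would be called here. Alternatives were limma-voom (limma 3.58.1), DESeq2 1.42.0, other scalings and filters, all 31 libraries, the replicate number as a block, and leaving out each library.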

Additional observations from a re-analysis of the deposited data

Results flagged for a closer look

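Sema3b was flagged because its ratio of Cre to control differed between central and peripheral axons by the test of that difference (log2 difference of 7.29). Its control levels differed widely between the tissues, so this is a difference of ratios and not of RNA amounts.

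Of 91 groups of 4 libraries tested for a single library far from the other 3, 17 held one; chance gives about 1 in 20, and a group with 3 libraries at 0 and 1 above it is always marked. Central Cre replicate 1 stood above the other central Cre libraries for Rarres1 (34.4 CPM), Tmc6 (47.2 CPM), Tmem45b (121 CPM) and Mylpf (25.8 CPM). Among central controls, replicate 1 stood apart for Gm49027 (0.085 CPM), Rarres1 (0.34 CPM), Filip1 (0.51 CPM), Gad1 (171 CPM) and Mylpf (1.19 CPM), replicate 4 for Scn10a (28.8 CPM), Sema3b (0.197 CPM) and Tmc6 (0.0987 CPM), and replicate 3 for Rpl7 (245 CPM). Among peripheral Cre libraries, replicate 2 stood apart in total counts (15.1 M) and for Mylpf (375 CPM), replicate 1 for Nkain3 (33.6 CPM) and replicate 3 for Dnajc6 (82.0 CPM). The peripheral controls, being 3, were not examined in this way.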

How the results depend on the processing

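The direction of the difference of differences held for all 65 genes named above under all 25 alternatives, and the size of the list of calls did not. Most of these genes were chosen by a small p in the same data, and the alternatives share most libraries. A change of sign was thus unlikely beforehand, and its absence is a description. Medians of several lists did change sign. The difference of differences called 4 genes with limma-voom, 285 with DESeq2, 26 with no low-count filter and 13 without central control 3 and peripheral control 4 (an alternative chosen after seeing the data). With all 31 libraries it called 1 gene, Scn11a, and not Sema3b. Central Cre against control called 356, 371, 80 and 35 genes under those same 4 settings and 29 with all 31 libraries; peripheral Cre against control called 3 with limma-voom, 157 with DESeq2 and 1 without the 2 controls. Central against peripheral Cre called 2023 with limma-voom, 2290 with DESeq2 and 2231 without the 2 controls, and control against control 2720 with limma-voom and 3626 with DESeq2. With a single library left out the counts ran from 0 to 68, 2 to 176, 0 to 5, 525 to 1665 and 831 to 1879 in that order. The cause was not tested.

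Libraries with the same number did not deviate together (mean correlation 0.011 for central and -0.018 for peripheral pairs). With the replicate block the difference of differences called 0 genes (619 at an unadjusted p under 0.05), central Cre against control 2, Cre against Cre 588 and control against control 818. With the replicate block within axon type, the difference of differences called 0 genes (357 at an unadjusted p under 0.05) and central Cre against control 0; Sema3b was then at 7.54.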
